A study of Homo sapiens and Mus musculus with 12 samples.

Results

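Genes that mark the classical subtype of pancreatic ductal adenocarcinoma (PDA) were examined for nearby binding of SPDEF and GATA6 in HPAF-II cells, an established line from human PDA. The 8 genes were CEACAM5, CEACAM6, LGALS4, CLDN18, CTSE, ANXA10, REG4 and VSIG2. A peak was assigned to a gene when it lay within 50 kb of the gene on the human build hg19, and 12 of 13445 human peaks met this rule. They comprised 3 of 2775 SPDEF peaks and 9 of 10670 GATA6 peaks. The rule uses the names and positions of the genes and no peak value, but the genes were chosen with earlier results of these data known. The series holds 12 CUT&RUN libraries, in which an antibody directs a nuclease to chromatin and the released fragments are sequenced. Of the 8 HPAF-II libraries, 3 used an antibody against the HA tag of HA-hSPDEF, 3 an antibody against GATA6, 1 an antibody against H3K4me3 and 1 an IgG control. The libraries of both factors came from cells carrying HA-hSPDEF, cultured in RPMI with serum, so no list describes cells without the tagged factor. Whether the tagged line is a single clone, and how its SPDEF level compares with that of untagged cells, was not stated in the labels. Peak lists hold no expression values, so neither the subtype of the line nor transcription of the 8 genes could be checked. The other 4 libraries, from the mouse line FC1245, were not used.

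Classical tumours keep an epithelial, gland-forming programme that resembles stomach and intestinal lining, in contrast to basal-like tumours. GATA6 is a zinc-finger factor of endoderm that marks classical tumours. SPDEF is an ETS-family factor of mucus-secreting epithelia. The 8 genes encode proteins of the cell surface, of secretions and of vesicles in such epithelia and do not themselves bind DNA as transcription factors.

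Fewer of the genes had an SPDEF peak nearby than a GATA6 peak, and the SPDEF list is also the shorter, with 2775 peaks against 10670. At least 1 SPDEF peak lay within 50 kb of 3 of the 8 genes (LGALS4, REG4 and VSIG2), beside 7.58% of all 120 kb windows of hg19. At least 1 GATA6 peak lay within 50 kb of 6 of the 8 genes, all but CLDN18 and VSIG2, beside 23.2% of windows. LGALS4 and REG4 had a peak of both factors, as did 6.28% of windows, and CLDN18 had a peak of neither. Each list is 1 measurement with no values per replicate, so none of these counts can be set against replicate error and no test was made. The windows tile chromosomes 1 to 22 and X from end to end and include stretches with few genes, so they are no background of genes.

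**Figure D1:**
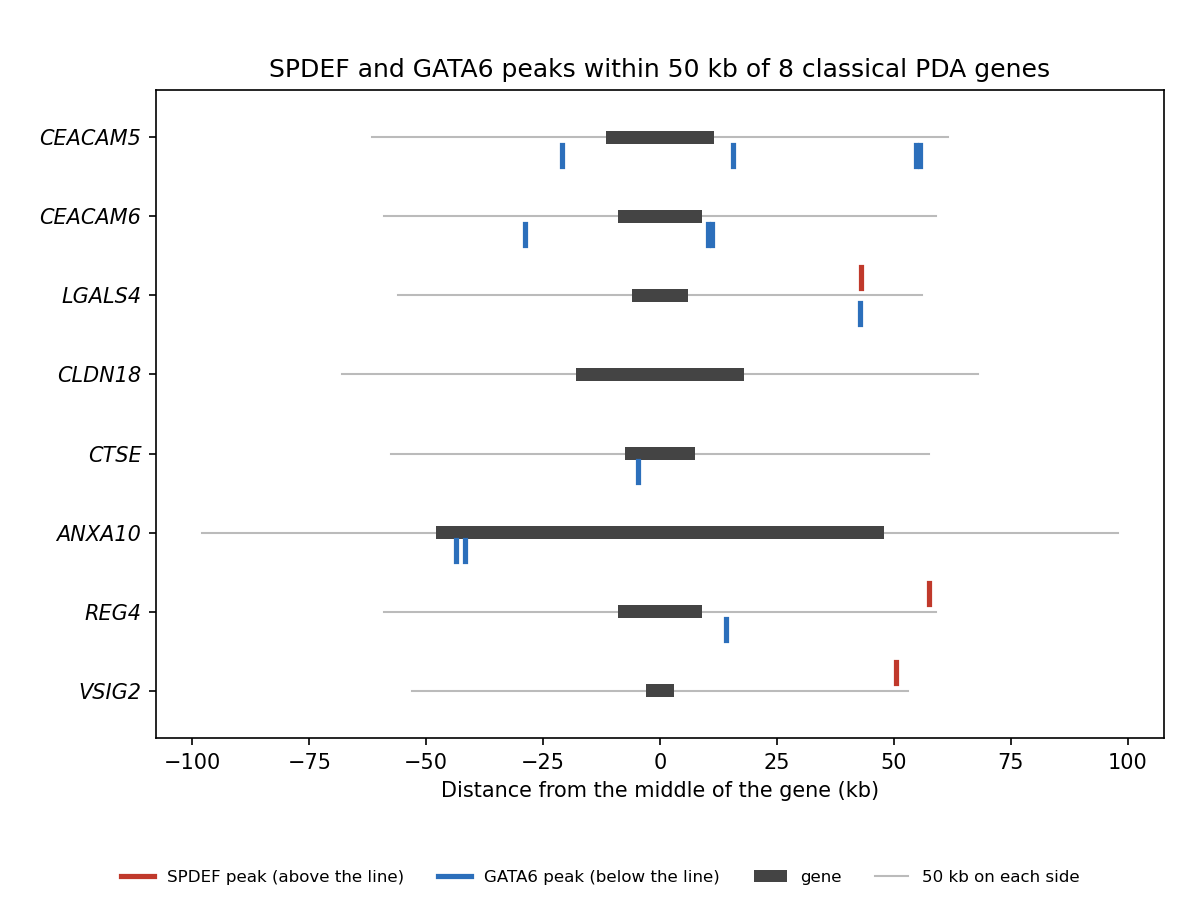
Positions of SPDEF peaks (red, above the line) and GATA6 peaks (blue, below the line) within 50 kb of each gene, 1 row per gene, against distance from the middle of the gene in kb, with low genome positions to the left. The GATA6 peaks of CTSE and ANXA10 lie inside the gene, and the 3 SPDEF peaks lie near the right-hand end of their rows.

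The nearest GATA6 peaks lay inside or close to most of the genes. Within 10 kb, 0 of the 8 genes had an SPDEF peak, beside 2.72% of windows of 38 kb, the span of the median gene with 10 kb on each side. Within the same 10 kb, 5 of the 8 genes had a GATA6 peak, beside 9.46% of windows. The distance from gene to nearest SPDEF peak ranged from 37 to 829 kb, with a median of 108.0 kb. The distance to the nearest GATA6 peak ranged from 0 to 264 kb, with a median of 4.5 kb. Gene edges were given to the kb, so each distance carries an error of up to 1 kb. The 2775 SPDEF peaks are fewer than the 10670 GATA6 peaks, and a shorter list gives longer distances, so neither these ranges nor the counts within 10 kb show that SPDEF lay farther from the genes than GATA6. A count of 0 in 8 genes is also close to the share of windows.

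**Figure D2:**
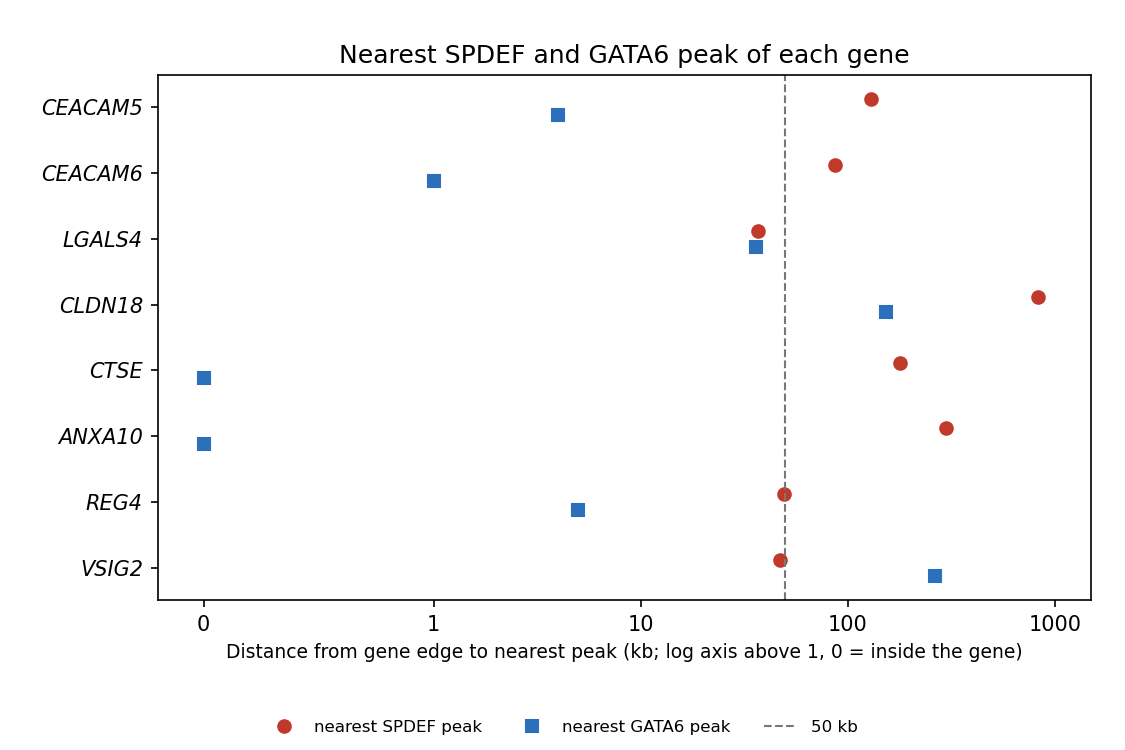
Distance in kb from the edge of each gene to its nearest SPDEF peak (red circles) and nearest GATA6 peak (blue squares), on an axis that is logarithmic above 1 kb and on which 0 means inside the gene. The SPDEF peaks start at 37 kb, whereas 5 of 8 GATA6 peaks lie within 10 kb; in VSIG2 alone the nearest peak is one of SPDEF.

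Promoter sequences of the genes were searched for the letters that each family of factors is known to prefer. RefSeq promoters on GRCh38.p14, from 250 bases before to 50 after the start of transcription, were matched for 7 of the 8 genes, with 8 windows since CLDN18 has 2 starts. The GATA words AGATAA or TGATAA, read on both strands, stood in 5 of the 8 windows, beside 16.3% of all 35116 promoters. These 5 belonged to LGALS4, CLDN18 (its first start only), CTSE, ANXA10 and REG4. The ETS core words GGAT and GGAA stood in 7 and 8 of the 8 windows, beside 76.5% and 95.5% of all promoters, so at this length they separate few promoters. No GATA word overlapped an ETS word in these windows. The GC content of the windows was 32.7% for ANXA10, 38.7% for REG4 and 49.3% for the first start of CLDN18. It lay between 53.3% and 62.7% for the other 5 windows, beside a median of 58.7% over all promoters. GATA words are rich in A and T, and the part of base composition in the count was not tested. A word is a string match and not a bound site.

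Peak and word did not go together in every gene. CEACAM5 and CEACAM6 had 4 and 3 GATA6 peaks within 50 kb and 0 GATA words. CLDN18 had 0 GATA6 peaks within 50 kb and 2 GATA words, both at its first start and 0 at its second. Which start of CLDN18 is used in HPAF-II cells cannot be read from peak lists. The windows of 4 genes with a GATA6 peak and a GATA word are shown 5′ to 3′ on the strand of the gene. Each GATA word is in capitals, also where it is read on the opposite strand. The coordinates are those of GRCh38.p14 and are not comparable with the hg19 peak positions. LGALS4 lies at chr19:38812896-38813195 (minus strand), CTSE at chr1:206023846-206024145 (minus strand), ANXA10 at chr4:168092287-168092586 (plus strand) and REG4 at chr1:119811411-119811710 (minus strand).
LGALS4: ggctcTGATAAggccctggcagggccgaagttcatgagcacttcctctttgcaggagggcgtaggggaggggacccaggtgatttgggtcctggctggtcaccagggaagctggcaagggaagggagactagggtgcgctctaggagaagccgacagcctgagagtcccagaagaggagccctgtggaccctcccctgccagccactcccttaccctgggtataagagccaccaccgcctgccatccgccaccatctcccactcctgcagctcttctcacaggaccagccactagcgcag
CTSE: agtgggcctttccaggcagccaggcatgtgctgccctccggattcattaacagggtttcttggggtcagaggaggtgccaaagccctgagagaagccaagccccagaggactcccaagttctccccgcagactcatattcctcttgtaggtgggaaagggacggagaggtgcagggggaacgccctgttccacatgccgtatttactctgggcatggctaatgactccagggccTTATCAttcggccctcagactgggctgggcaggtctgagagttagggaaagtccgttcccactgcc
ANXA10: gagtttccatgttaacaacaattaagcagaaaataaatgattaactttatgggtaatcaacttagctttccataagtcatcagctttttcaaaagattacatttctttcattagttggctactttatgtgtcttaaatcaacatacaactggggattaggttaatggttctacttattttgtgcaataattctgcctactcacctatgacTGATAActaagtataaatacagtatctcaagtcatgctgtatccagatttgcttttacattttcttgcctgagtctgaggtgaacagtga
REG4: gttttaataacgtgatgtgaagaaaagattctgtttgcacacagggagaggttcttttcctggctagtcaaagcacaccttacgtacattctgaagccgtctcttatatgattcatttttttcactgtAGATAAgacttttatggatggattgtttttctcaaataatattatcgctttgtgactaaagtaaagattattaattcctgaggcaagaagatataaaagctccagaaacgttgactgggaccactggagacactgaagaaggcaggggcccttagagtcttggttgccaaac

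These windows hold 1 GATA word each. In CTSE it begins at base 235 of the window and in ANXA10 at base 211, both close before the start of transcription. In REG4 it begins at base 129 and in LGALS4 at base 6, the far end of the window. The GATA6 peaks lay 36 kb (LGALS4) and 5 kb (REG4) outside the gene. In ANXA10 and CTSE they lay inside it, 3.8 and 2.5 kb or more from the nearer edge. With a start of transcription at a gene edge, none of them reaches these promoter windows, so the GATA words shown are not under the listed peaks. The sequence of the peaks is not printed because no hg19 genome was used here.

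CEACAM5 and CEACAM6 encode related adhesion glycoproteins anchored in the outer cell membrane, of which the CEACAM5 protein is carcinoembryonic antigen. They are neighbours on chromosome 19, at 42212 to 42235 kb and 42259 to 42277 kb, and their 50 kb flanks overlap. Together they had 4 GATA6 peaks and 0 SPDEF peaks. The first GATA6 peak (chromosome 19, 42202368 to 42202722, 355 bp) lay 9 kb before CEACAM5 on the low-numbered side. The second (42238844 to 42239324, 481 bp) lay between the genes, 4 kb past CEACAM5 and 20 kb before CEACAM6. The last 2 (42278036 to 42278464 and 42278605 to 42279756) lay 1 and 2 kb past CEACAM6, were 429 and 1152 bp wide and stood 140 bp apart. Both genes are read on the plus strand in RefSeq on GRCh38.p14, so the pair lies past the 3′ end of CEACAM6, and CEACAM3 is the next protein-coding gene on that side.

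All 4 GATA6 peaks were within 50 kb of CEACAM5 and 3 of them within 50 kb of CEACAM6. The peak 9 kb before CEACAM5 was 56 kb from CEACAM6 and thus just outside. In windows as long as the CEACAM5 interval, 123 kb, 2.33% held at least 4 GATA6 peaks, and 4.6% of windows of 118 kb held at least 3, the CEACAM6 count. These counts are not independent, since the genes share 3 peaks. The 4 peaks made up part of the 29 GATA6 peaks of band 19q13.2, which also held 10 SPDEF peaks, none of them within 50 kb of either gene. The nearest SPDEF peak (42363917 to 42364201, 285 bp) was 87 kb past CEACAM6 and overlapped a GATA6 peak at 42363706 to 42364165. The promoter windows of the 2 genes were identical at 236 of 311 aligned positions (75.9%) and had 0 GATA words.

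LGALS4 encodes galectin-4, a lectin of digestive epithelia that binds glycans. It was the one gene of the 8 with a site shared by both factors. Its SPDEF peak (chromosome 19, 39340806 to 39341113, 308 bp) lay wholly inside its GATA6 peak (39340324 to 39341252, 929 bp), and their midpoints were 171.5 bp apart. The site lay 36 kb past the high-numbered edge of the gene (39292 to 39304 kb). LGALS4 is read on the minus strand in RefSeq on GRCh38.p14, so this is the side of its promoter. ECH1 and HNRNPL are the next protein-coding genes on that side, so the site is not tied to LGALS4 by position alone. Without hg19 positions of these genes, whether it lies inside or at the start of one of them was not determined. A site shared by both factors within 50 kb of LGALS4 is thus not shown to be a site of LGALS4.

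REG4, a secreted lectin of gastrointestinal epithelia, had peaks of both factors at separate places. Its GATA6 peak (chromosome 1, 120358799 to 120359606, 808 bp) lay 5 kb beyond the high-numbered edge of the gene (120336 to 120354 kb). REG4 is read on the minus strand in RefSeq on GRCh38.p14, which puts this peak before its start of transcription. The SPDEF peak (120402510 to 120402665, 156 bp) lay 49 kb from the gene on the same side, just inside the 50 kb limit, and 42.9 kb from the GATA6 peak. ADAM30 and NOTCH2 are the next protein-coding genes on that side, so the SPDEF peak is not tied to REG4 by position alone. Its place relative to these genes was not determined either. The next SPDEF peak beyond the limit was 301 kb from the gene and the next GATA6 peak 221 kb. The GATA6 peak of REG4 was thus isolated, being the sole one within 200 kb.

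CTSE encodes cathepsin E, an aspartic protease of gastric and other epithelia. It had 1 GATA6 peak (chromosome 1, 206319533 to 206319929, 397 bp), inside the gene (206317 to 206332 kb) and 2.5 kb from its low-numbered edge. The nearest SPDEF peak lay 178 kb away (206138996 to 206139114, 119 bp). No promoter side is given for CTSE, because its segment of chromosome 1 is placed in opposite orientation in hg19 and GRCh38. For the other genes the strand on GRCh38.p14 was assumed to hold in hg19, without a check. Whether the peak lies in an exon or an intron was not determined, here and for ANXA10, for want of an hg19 annotation.

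ANXA10 encodes a member of the annexin family that is expressed in gastric epithelium. It held 2 GATA6 peaks inside the gene (chromosome 4, 169013 to 169109 kb), at 169016846 to 169017850 (1005 bp) and 169018289 to 169020210 (1922 bp), 438 bp apart. They began 3.8 and 5.3 kb from the low-numbered edge, which is the side of the promoter for a gene read on the plus strand, as RefSeq gives it on GRCh38.p14. The wider of them was among the widest of its list, with 73 of 10670 GATA6 peaks (0.684%) wider. Windows as long as its interval, 196 kb, held at least 2 GATA6 peaks in 16.2% of cases. The surroundings were sparse: its band 4q32.3 held 10 GATA6 peaks over 5.6 Mb, and the next GATA6 peak beyond the 2 was 293 kb away. The nearest SPDEF peak was 299 kb away (169408386 to 169408570).

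VSIG2, a membrane protein of the immunoglobulin superfamily, had the opposite pattern. Its SPDEF peak (chromosome 11, 124670415 to 124670762, 348 bp) lay 47 kb beyond the high-numbered edge of the gene (124617 to 124623 kb). This is the side of ESAM, MSANTD2 and ROBO3, so the site is not tied to VSIG2 by position alone. Without hg19 positions of these genes, whether it lies inside or at the start of one of them was not determined. A further 2 SPDEF peaks lay within 100 kb, the nearer of them 82 kb from the gene. No GATA6 peak lay within 200 kb, and the nearest was 264 kb away (124351776 to 124352585, 810 bp). The SPDEF peak near VSIG2 was 317.8 kb from the nearest GATA6 peak.

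CLDN18 encodes claudin-18, a tight-junction protein of gastric epithelium. Within 50 kb of the gene (chromosome 3, 137717 to 137753 kb) 0 peaks of either factor were listed. The nearest GATA6 peak was 153 kb away and narrow (137906278 to 137906464, 187 bp), and the nearest SPDEF peak was 829 kb away (138581657 to 138582330, 674 bp). Its band 3q22.3 held 4 SPDEF and 13 GATA6 peaks over 3.0 Mb. The promoter window of its first start held 2 GATA words and that of its second start 0. The sequencing depth behind the lists is unknown, so a gene without a listed peak is not shown to lack the factor.

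With distance the share of genes with a peak grew. An SPDEF peak lay within 100 kb of 4 genes, beside 12.5% of windows of 218 kb, and within 200 kb of 6 genes, beside 20.5% of windows of 418 kb. Within 200 kb the same SPDEF peak counted for CEACAM5 (129 kb) and CEACAM6 (87 kb), so these genes are not independent. A GATA6 peak lay within 100 kb of 6 genes, beside 34.7% of windows, and within 200 kb of 7, beside 49.7%. The 3 SPDEF peaks inside the limit stood at 37, 47 and 49 kb and the first outside it at 82 kb, so the count of genes with SPDEF moves with the distance chosen: it was 0 at 25 kb and 3 at 50 kb. For GATA6 the count was 5 at 25 kb and 6 at 50 kb.

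**Figure D3:**
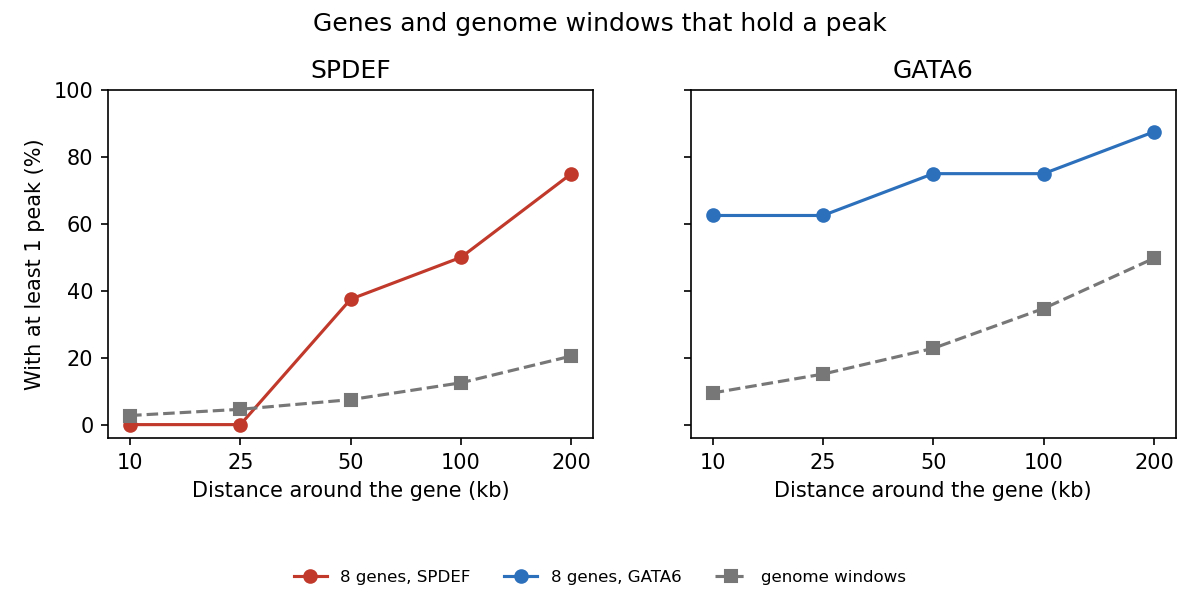
Percentage of the 8 genes with at least 1 peak (coloured circles, solid line) within 10, 25, 50, 100 and 200 kb, and percentage of genome windows of the matching length with at least 1 peak (grey squares, dashed line), for SPDEF on the left and GATA6 on the right. SPDEF stands at 0 of 8 genes at 10 and 25 kb and 3 of 8 at 50 kb, whereas GATA6 stands at 5 of 8 at 10 kb and 7 of 8 at 200 kb.

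LGALS4 held the one site near the genes with overlapping peaks of both factors. By at least 1 bp, 1 of the 3 SPDEF peaks shared sequence with a GATA6 peak (33.3%, 95% Wilson interval 6.15 to 79.2), against 1796 of 2775 over the whole list (64.7%, 62.9 to 66.5). Of the 9 GATA6 peaks, 1 overlapped an SPDEF peak (11.1%, 1.99 to 43.5), against 1717 of 10670 (16.1%, 15.4 to 16.8). Both intervals near the genes contain the share of the whole list, and with so few peaks a difference was not detectable. The intervals cover counting error only and are no test. They treat peaks as independent, which neighbouring GATA6 peaks are not, and the whole list includes the peaks near the genes.

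The GATA6 peaks near the genes were all wider than the median of the list, some of them by little. Their median width was 808 bp against 346 bp over the list, and each of the 9 reached the list's median, as do 50.1% of all GATA6 peaks. The narrowest was the 355 bp peak before CEACAM5, with 48.5% of the list wider. The CTSE peak (397 bp) and the peaks of 429 and 481 bp near CEACAM6 had between 34.5% and 42.7% of the list wider. The peaks of LGALS4, ANXA10 and REG4 and the wider one past CEACAM6 had between 0.684% and 16.4% of the list wider. The 9 peaks form 7 sites when those within 1 kb of each other are joined, so neighbouring peaks are not independent. For the SPDEF peaks the median was 308 bp near the genes against 268 bp over the list, and 2 of the 3 reached the list's median, as do 50.1% of all SPDEF peaks. The exception was the peak of REG4, with 89.3% of the list wider. Width is not peak height, which the lists do not give.

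**Figure D4:**
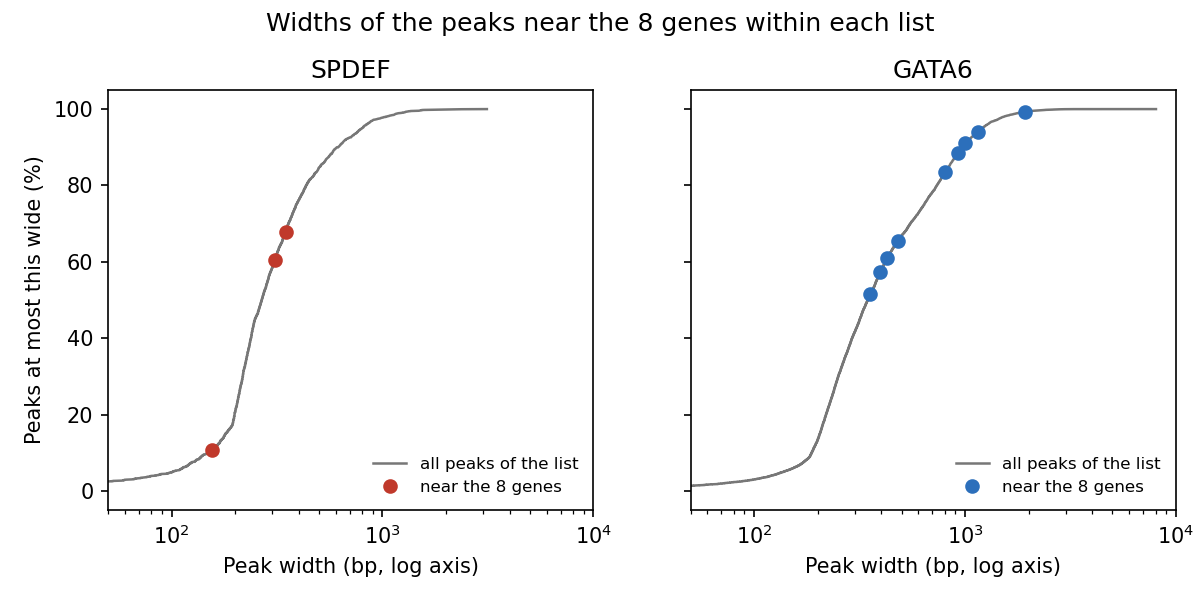
Cumulative percentage of peaks against width in bp on a log axis for the SPDEF list (left) and the GATA6 list (right), leaving out the peak on the mitochondrial genome, with peaks near the 8 genes as coloured points. The 3 SPDEF points lie between 156 and 348 bp, with that of REG4 on the lower part of the curve. The 9 GATA6 points lie between 355 and 1922 bp, and all 9 are on the upper part of the curve.

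A further 31 genes of published classical signatures were placed by cytogenetic band only, since their hg19 positions were not used here. They fell in 28 bands, of which 26 held an SPDEF peak and 28 a GATA6 peak, against 564 and 778 of all 862 bands. The 6 bands of the 8 genes all held both. The ratio of peaks observed to peaks given by band length had a median of 1.54 for SPDEF and 1.04 for GATA6 in the bands of the 8 genes. The medians were 1.6 and 1.48 in the bands of the 31 genes, and 0.485 and 0.829 over all bands. For SPDEF the ratio was highest for the bands of MYO1A, a brush-border myosin (12q13.3, 7.44), GPX2, a glutathione peroxidase of the gut (14q23.3, 5.76), and CYP3A7, a cytochrome P450 (7q22.1, 5.58). For GATA6 it was highest for the bands of LYZ, lysozyme (12q15, 3.59), GPX2 (3.46) and CYP3A7 (3.45). A band holds many genes, so these ratios say nothing about a single one. All bands include those of chromosome Y and stretches with few genes, so they are no background of genes. Band 1q32.1 counts in both sets of genes, for CTSE and for ELF3.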

How the data were processed

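The submitters' processing notes list MACS2 2.2.7.1, Bowtie2 2.4.4, deepTools and SAMtools 1.14, and name hg19 and mm10 as builds. Their roles, the peak threshold, the control and any pooling of the 3 replicate libraries were not stated. The deposited lists hold the chromosome, start and end of each peak in bp, with no score, so they were compared by position, width and overlap, without a test. Each list was assigned to its target by its name. Chromosome ends of hg19 were exceeded by 0 peaks of either list. Positions are printed counting from 1.

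A peak counted as near a gene when at most 50 kb lay between their edges. Background windows of 120 kb tiled hg19 chromosomes 1 to 22 and X (25290 windows; lengths and bands from circlize 0.4.16 in R 4.3.3). The mouse list was not used. The counting was checked on planted peaks. Other steps used Python 3.11.15, scipy 1.17.1, Biopython 1.88 (global alignment of the CEACAM promoters) and matplotlib 3.10.9. RefSeq tables of GRCh38.p14 gave gene order, strands, promoters and the bands of other classical genes, tied to hg19 by band name. All 8 genes and all peaks near them were named. The genes, lists and distances were chosen with earlier results of these data known.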

Additional observations from a re-analysis of the deposited data

How the results depend on the processing

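No paired analysis was possible because the deposited lists carry no replicate values (1 list for SPDEF and 1 for GATA6), and no library could be left out for the same reason. With 10 kb or 25 kb around the genes in place of 50 kb, 0 genes had an SPDEF peak, 0 SPDEF peaks were near them and 0 overlapped a GATA6 peak. With 100 kb, 6 SPDEF peaks were near 4 genes and 2 of them overlapped a GATA6 peak. The LGALS4 pair no longer counted as shared when at least 50% of both peaks had to be covered (0 peaks), a rule that a 308 bp peak inside one of 929 bp cannot meet. The counts of genes and peaks for GATA6 stayed within 1.5 times the reported value under the alternatives run, from 5 to 6 genes over 5 alternatives and from 7 to 11 peaks over 6. Leaving out peaks under 100 bp, or the narrower 50% of each list, left 3 and 2 genes with SPDEF. The share of windows with a peak moved with the window: 4.13% for SPDEF and 13.7% for GATA6 at 60 kb, 13.5% and 36.7% at 240 kb, and 8.8% and 27.0% over windows with a peak of either list within 1 Mb. Joining peaks within 1 kb and windows of each gene's own length were chosen after seeing the data; the latter gave 6.77% to 11.5% for SPDEF and 21.3% to 32.2% for GATA6. Unknown depth limits every count of 0.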
